A study of Mus musculus with 8 samples.

Results

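Cadherins and their catenin partners were followed in the developing sciatic nerve with and without *Nae1* in Schwann cells. The set holds 9 genes of the 53090 in the deposited gene tables and was chosen by symbol: the cadherins *Cdh1*, *Cdh2*, *Cdh3*, *Cdh6*, *Cdh11*, *Cdh13* and *Cdh19*, and the catenins *Ctnna1* and *Ctnnd1*. NAE1 is a subunit of the enzyme that activates NEDD8, the small protein that is attached to cullins and other targets in neddylation. The question put to these genes is which cadherin transcripts differ when the Schwann cells of a myelinating nerve lose *Nae1*.

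Total RNA of whole sciatic nerve was sequenced from 4 *Nae1* cKO mice (Cre+;*Nae1* f/f) and 4 littermates labelled WT (Cre−;*Nae1* f/+ or f/f), all at 7 days of age, when Schwann cells are forming myelin. The Cre recombinase was expressed in Schwann cells, so fibroblasts, macrophages, vessels and other cells of the nerve would keep *Nae1*. Its level in each cell type was not measured here. The WT nerves carried floxed alleles without Cre. The labels call each nerve by a letter and a number, K2, L1, L5 and L8 for cKO and K1, L3, L4 and L9 for WT, and these names are used below.

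Depth was 12962798 to 13855366 expected counts in cKO nerves and 13508752 to 14766770 in WT nerves. *Nae1* itself was at 51.8 ± 6.56 CPM in cKO nerves and 82.9 ± 5.07 CPM in WT nerves (SD, n = 4 each), a log2 fold change of −0.68 (SE 0.097) with an adjusted p of 0.000277 by edgeR's quasi-likelihood test, a direction that fits the labels. It lost its call by limma on TPM. CPM is the count scaled to library size after TMM, a correction of that size for composition. Nerve cKO K2 stood apart from the rest of its group: its Spearman correlations across genes with the other 3 cKO nerves were 0.973 to 0.978, against 0.989 to 0.992 among those 3. Skeletal muscle markers summed to 60.8 to 189 CPM in cKO nerves and 126 to 2090 CPM in WT nerves, with the highest sums in WT L4 (2090 CPM) and WT K1 (1290 CPM). Results that rest on these nerves are given with and without them. Across all 17090 genes tested, 14.1% were called higher in cKO nerves and 12.3% lower at an adjusted p under 0.05, 6.75% were called with a change over 2-fold in either direction, and 28.6% had cKO and WT values that did not overlap.

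Classical cadherins join neighbouring cells through calcium-bound extracellular repeats that pair with the same cadherin on the next cell. Inside the cell, the tail holds delta-catenin (*Ctnnd1*) near the membrane and beta-catenin (*Ctnnb1*) further along, and beta-catenin binds alpha-catenin (*Ctnna1*), which links the junction to actin. In peripheral nerve, N-cadherin (*Cdh2*) is known from precursor and immature Schwann cells and their contacts with axons. E-cadherin (*Cdh1*) is known from the autotypic junctions that a myelinating Schwann cell makes with itself at paranodes and incisures, and *Cdh19* is known as a cadherin of the neural crest and Schwann cell lineage.

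The coding stretches that follow are shown because they tell the 2 subfamilies of classical cadherins apart in the members that differed between the genotypes and in those that did not. Capitals mark the codons aligned with the histidine-alanine-valine motif of *Cdh1*, a hallmark of the first extracellular repeat of type I cadherins. The stretches were read 5′ to 3′ from GENCODE vM21 transcripts on GRCm38, and those of *Cdh1*, *Cdh3* and *Cdh13* cross an intron, so their coordinates span it. *Cdh20*, which is no member, is added as a relative of *Cdh6*, *Cdh11* and *Cdh19*.
*Cdh1*, chr8:106653911-106656859, plus strand: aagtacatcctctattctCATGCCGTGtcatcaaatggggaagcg
*Cdh3*, chr8:106536963-106537109, plus strand: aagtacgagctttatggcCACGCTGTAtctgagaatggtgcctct
*Cdh6*, chr15:13064392-13064436, minus strand: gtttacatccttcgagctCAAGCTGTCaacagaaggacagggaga
*Cdh11*, chr8:102673924-102673968, minus strand: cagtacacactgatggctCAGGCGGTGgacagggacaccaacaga
*Cdh19*, chr1:110949236-110949280, minus strand: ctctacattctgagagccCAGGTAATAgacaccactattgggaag
*Cdh20*, chr1:104941170-104941214, plus strand: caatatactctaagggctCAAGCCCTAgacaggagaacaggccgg
*Cdh13*, chr8:118851863-118968084, plus strand: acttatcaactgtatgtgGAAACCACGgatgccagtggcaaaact
*Cdh1* and *Cdh3* carry codons for the same motif, written with other letters. *Cdh2*, whose stretch is not reported here, codes for the motif as well. *Cdh6*, *Cdh11*, *Cdh19* and *Cdh20*, type II cadherins, begin the aligned codons with one for glutamine in place of histidine, and *Cdh13*, which has no cytoplasmic tail and is held to the membrane by a lipid anchor, begins them with one for glutamate. Over the translated coding sequence, *Cdh1* was 56.9% identical to *Cdh3* and 34.6% identical to *Cdh19*. *Cdh20* was 58.4% identical to *Cdh6*, 57.1% to *Cdh11* and 46.6% to *Cdh19*.

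All 9 genes passed the filter on low counts. *Cdh19* and *Cdh6* were called higher in *Nae1* cKO nerves and *Cdh1* lower, and the other 6 did not pass the test. That is 2 of 9 higher, against 14.1% of all genes, and 1 of 9 lower, against 12.3%, so neither count is a result about the set as a whole. The median log2 fold change was 0.02 over the 9 genes and 0.0066 over all genes tested. The groups did not overlap for the same 3 genes, against 28.6% of all genes.

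**Figure D1:**
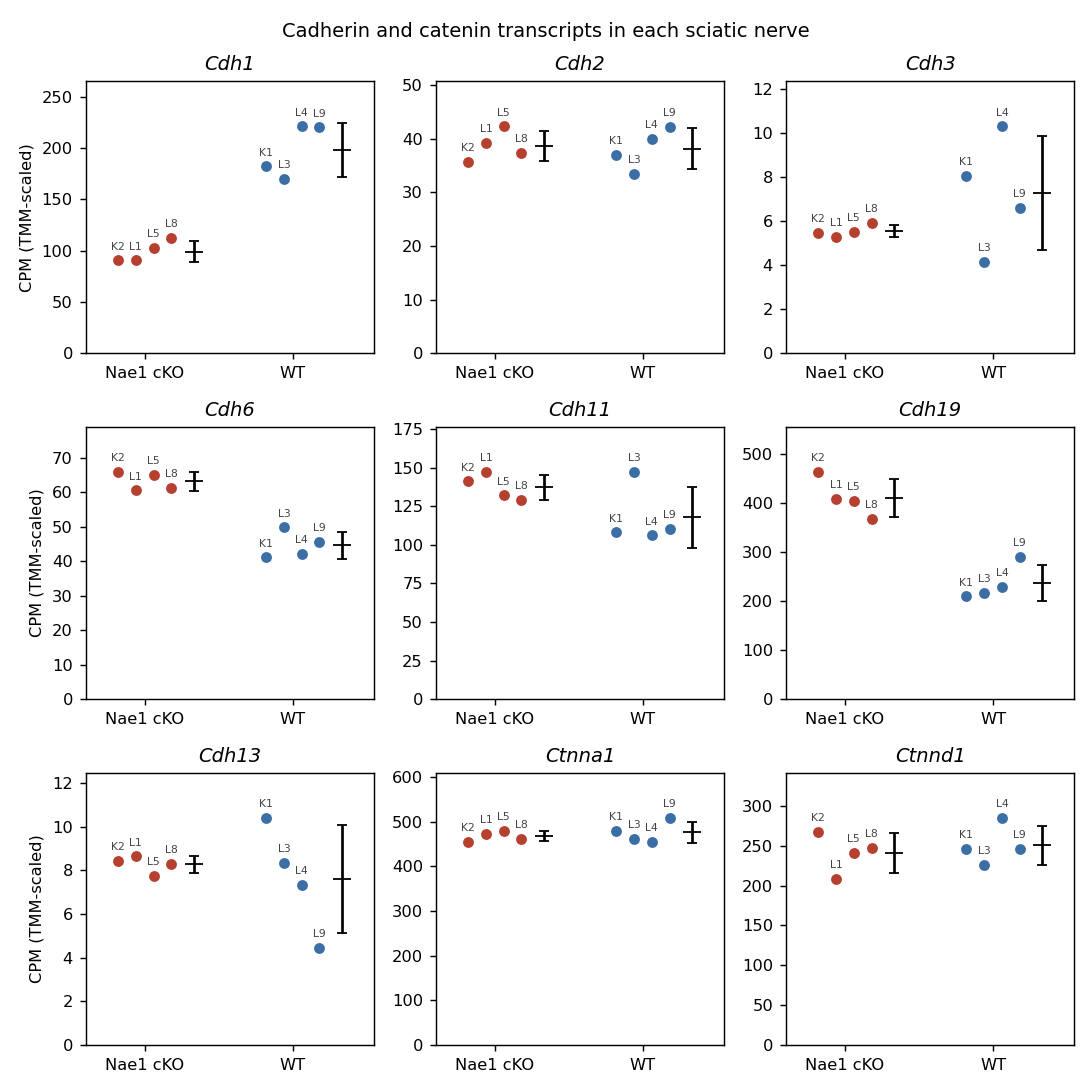
Each panel plots the TMM-scaled CPM of a gene in every sciatic nerve, *Nae1* cKO in red on the left and WT in blue on the right, with the nerve's name above its point and the mean ± SD of the 4 nerves in black, on a linear axis from 0. The 4 cKO nerves lie below all WT nerves for *Cdh1* (90.5 to 112 against 170 to 221 CPM) and above them for *Cdh19* and *Cdh6*, while the groups overlap in the other 6 panels.

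Of the type I cadherins, E-cadherin fell. *Cdh1* (ENSMUSG00000000303.12, chromosome 8, 106603351 to 106670246, plus strand) was at 90.5, 90.5, 103 and 112 CPM in cKO nerves K2, L1, L5 and L8, against 182, 170, 221 and 220 CPM in WT nerves K1, L3, L4 and L9. Every cKO nerve lay below every WT nerve, and the highest cKO nerve was still well under the lowest WT nerve. The means were 99.1 ± 10.6 CPM in cKO nerves and 198 ± 25.8 CPM in WT nerves (SD, n = 4 each), from 1212 to 1611 counts a nerve in cKO and 2353 to 3075 in WT. The log2 fold change was −1.0 (SE 0.11) with an adjusted p of 3.22e-05 by edgeR's quasi-likelihood test, which puts *Cdh1* at the 2-fold mark itself. Gene identifiers here carry the version of the deposited tables, and positions are those of GENCODE vM21. It was called lower in all 20 alternative analyses, at −1.07 to −0.82, with adjusted p up to 0.0169.

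E-cadherin is best known from epithelia, and epithelial markers were at or near 0 in these libraries. *Epcam*, *Krt5*, *Krt8*, *Krt14* and *Krt18*, which define simple and stratified epithelium, had at most 3 counts in any nerve. *Krt7*, a keratin of simple epithelium, had 1 to 25 counts in cKO nerves and 7 to 22 in WT nerves and carried most of the list's sum in all nerves but cKO L5. The 8 epithelial genes summed to 0.136 to 2.24 CPM in cKO nerves and 0.795 to 1.9 CPM in WT nerves. Markers of myelinating Schwann cells moved in the direction of *Cdh1*. They summed to 16100 to 19800 CPM in cKO nerves and 41000 to 63500 CPM in WT nerves. Of the 10, 8 were called lower, against 12.3% of all genes, and none higher, against 14.1%. Counts in the marker lists below stand against these same shares. *Mag*, a myelin adhesion protein, was at 287 ± 21.6 CPM in cKO nerves and 639 ± 18.8 CPM in WT nerves (SD, n = 4 each), a log2 fold change of −1.16 with an adjusted p of 9.28e-07 by the same test. The part of this shift in the *Cdh1* result was not tested, and in bulk nerve fewer cells of a type and less RNA per cell cannot be told apart.

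N-cadherin did not pass the test. *Cdh2* (ENSMUSG00000024304.14, chromosome 18, 16588877 to 16809246, minus strand) was at 35.7, 39.2, 42.3 and 37.4 CPM in cKO nerves and 37.0, 33.4, 40.0 and 42.2 CPM in WT nerves. The 2 sets of values cover nearly the same range, with means of 38.6 ± 2.82 CPM in cKO nerves and 38.1 ± 3.82 CPM in WT nerves (SD, n = 4 each). The log2 fold change was 0.02 (SE 0.095), with an adjusted p of 0.905 by edgeR. An antisense gene lies over *Cdh2*, and its reads can be kept apart only if the counting used strand, a setting not given in the sources used here.

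P-cadherin, another type I member and a neighbour of *Cdh1* on the same strand, was scarce. *Cdh3* (ENSMUSG00000061048.8, chromosome 8, 106510891 to 106557297) was at 5.45, 5.29, 5.51 and 5.92 CPM in cKO nerves and 8.04, 4.13, 10.3 and 6.59 CPM in WT nerves. The cKO values fall inside the WT range, which was far wider, and the highest values were in WT L4 and WT K1, the nerves with the most muscle marker RNA. Its log2 fold change came to −0.39 with an SE of 0.23 and an adjusted p of 0.244 by edgeR. It was −0.59 (adjusted p = 0.033) without WT L3 and 0.05 (adjusted p = 0.924) without WT K1 and L4.

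Of the type II cadherins, *Cdh19* rose most. *Cdh19* (ENSMUSG00000047216.8, chromosome 1, 110888326 to 110977584, minus strand) was at 462, 408, 403 and 367 CPM in cKO nerves K2, L1, L5 and L8, against 209, 216, 229 and 289 CPM in WT nerves K1, L3, L4 and L9. All cKO nerves lay above all WT nerves, with WT L9 the nearest of its group and cKO K2 the farthest. The means were 410 ± 39.3 CPM in cKO nerves and 236 ± 36.6 CPM in WT nerves (SD, n = 4 each), a log2 fold change of 0.80 (SE 0.11) with an adjusted p of 0.000222 by edgeR's quasi-likelihood test. It was called in all 20 alternatives, at 0.68 to 0.96, with adjusted p up to 0.0105, and so also without cKO K2. The annotated genes *Gm36944* and *Gm38255* lie over *Cdh19* on the same strand, so reads may be shared in part.

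*Cdh19* and the summed markers of its lineage went in opposite directions. The 8 Schwann cell lineage genes summed to 2140 to 2430 CPM in cKO nerves and 2810 to 3060 CPM in WT nerves, with 1 called higher and 3 lower. Of these, *Sox10*, the lineage's transcription factor, was called lower, at 49.4 ± 8.3 CPM in cKO nerves and 82.4 ± 19 CPM in WT nerves (SD, n = 4 each). *Sox10* lost its call without WT K1 and L4 (adjusted p = 0.0811) and by limma on TPM. Markers of immature Schwann cells summed to 385 to 476 CPM in cKO nerves and 276 to 347 CPM in WT nerves, and 4 of the 6 tested were called higher, *Ncam1*, *Sox2*, *Gap43* and *L1cam*. The others tested, *Ngfr* and *Jun*, had log2 fold changes of −0.22 and −0.12 and were not called. The part of these markers in the *Cdh19* result was not tested.

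*Cdh6*, a type II cadherin known from kidney and neural crest, rose by less and with little spread. It was at 65.8, 60.5, 65.1 and 61.2 CPM in cKO nerves and 41.1, 49.8, 42.2 and 45.5 CPM in WT nerves. The groups did not overlap, and WT L3 was the highest of its group. *Cdh6* (ENSMUSG00000039385.4, chromosome 15, 13028701 to 13173675, minus strand) averaged 63.1 ± 2.69 CPM in cKO nerves and 44.7 ± 3.91 CPM in WT nerves (SD, n = 4 each), a log2 fold change of 0.50 (SE 0.083) with an adjusted p of 0.000811 by edgeR. The call held in 18 of 20 alternatives and was lost by limma on log2(TPM + 1) and log2(TPM + 0.1), with adjusted p of 0.101 and 0.103, where the log2 differences were 0.59 and 0.62.

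*Cdh11*, the type II cadherin of mesenchymal cells and fibroblasts, did not pass the test, and its result rests on a single nerve. It was at 141, 147, 132 and 129 CPM in cKO nerves and 108, 147, 106 and 110 CPM in WT nerves. WT L3 was as high as the highest cKO nerve, while the other 3 WT nerves lay below all cKO nerves. *Cdh11* (ENSMUSG00000031673.6, chromosome 8, 102632095 to 102785642, minus strand) had a log2 fold change of 0.22 (SE 0.11, adjusted p = 0.153 by edgeR), and 0.34 (adjusted p = 0.0091) without WT L3. With libraries scaled to their totals alone it was 0.37 (adjusted p = 0.0348).

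Fibroblasts are a known source of *Cdh11* in nerve, so their markers are given beside it. The 10 fibroblast genes summed to 19600 to 22000 CPM in cKO nerves and 15700 to 19900 CPM in WT nerves. The collagens *Col3a1*, *Col1a1* and *Col1a2* made up most of that sum. WT L3 had the highest sum of the WT nerves, at 19900 CPM, but not the highest level of most single markers, and *Dcn*, at 520 CPM, was lower there than in the other WT nerves. Of these 10, *Dcn*, *Lum*, *Pdgfra* and *Col3a1*, genes of fibroblasts and the collagen matrix they make, were called higher, and none was called lower. Without WT K1 and L4, 2 of the 10 were called higher, with *Pdgfra* at an adjusted p of 0.0514, and *Col3a1* was called in 6 of 20 alternatives. Their part in the results for *Cdh6* and *Cdh11* was not tested.

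T-cadherin was low and did not pass the test. *Cdh13* (ENSMUSG00000031841.19, chromosome 8, 118283733 to 119324921, plus strand) was at 8.43, 8.64, 7.75 and 8.29 CPM in cKO nerves and 10.4, 8.33, 7.32 and 4.45 CPM in WT nerves. The cKO nerves lay close together within the wider range of the WT nerves. Its log2 fold change came to 0.12 with an SE of 0.21 and an adjusted p of 0.726 by edgeR. T-cadherin is known from endothelium and smooth muscle. The 10 endothelial markers summed to 302 to 334 CPM in cKO nerves and 320 to 384 CPM in WT nerves. Of these, *Kdr*, *Egfl7* and *Pecam1* were called lower, at log2 fold changes of −0.53, −0.44 and −0.32, and *Cd34*, which fibroblasts also express, higher at 0.58, with a median of −0.31 over the 10. *Pecam1* was called in 8 of 20 alternatives, and *Egfl7* lost its call without WT K1 and L4. The 8 mural markers summed to 457 to 498 CPM in cKO nerves and 438 to 533 CPM in WT nerves. The part of these markers in the *Cdh13* result was not tested.

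The member catenins did not pass the test. *Ctnna1* (ENSMUSG00000037815.6, chromosome 18, 35118859 to 35254779, plus strand), the widely expressed alpha-catenin, was at 454, 473, 479 and 462 CPM in cKO nerves and 480, 461, 454 and 508 CPM in WT nerves. Its values lay within a narrow band in both groups, with means of 467 ± 11.1 CPM in cKO nerves and 476 ± 23.9 CPM in WT nerves (SD, n = 4 each) and a log2 fold change of −0.03 (SE 0.07, adjusted p = 0.822 by edgeR). *Ctnnd1* (ENSMUSG00000034101.14, chromosome 2, 84600071 to 84650765, minus strand), which holds cadherins at the membrane, was at 268, 208, 241 and 247 CPM in cKO nerves and 246, 226, 285 and 246 CPM in WT nerves. The groups overlapped throughout, with a log2 fold change of −0.06 (SE 0.095, adjusted p = 0.698 by edgeR). A predicted protein-coding gene lies over *Ctnnd1* on the same strand, and *Lrrtm2* lies inside *Ctnna1* on the other strand, so their reads may be shared in part. Annotated genes also lie over *Cdh11* and *Cdh13*, in part on the same strand, and none lies over *Cdh1*, *Cdh3* or *Cdh6*.

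**Figure D2:**
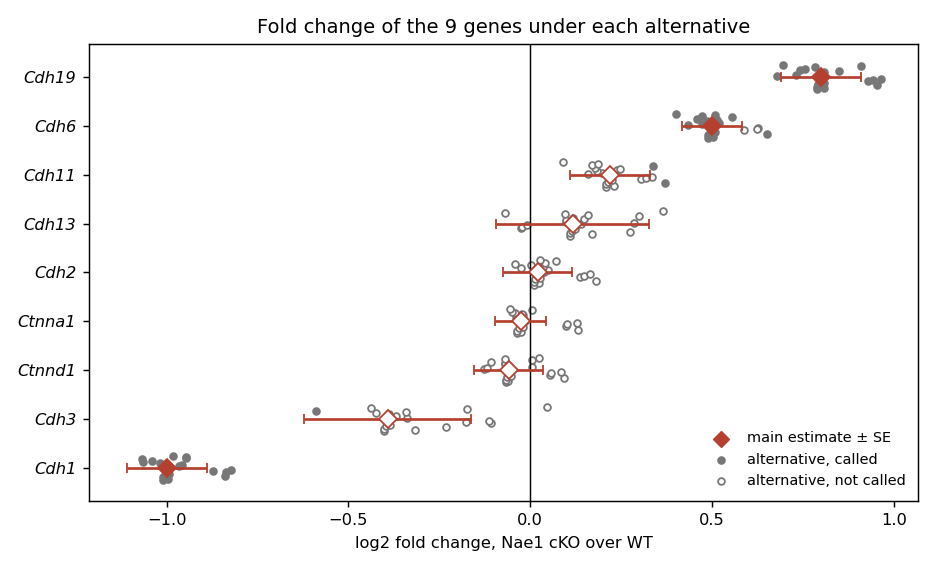
The x axis is the log2 fold change of *Nae1* cKO over WT, with red diamonds for the main estimate ± SE (filled where the adjusted p is under 0.05) and small circles for the 20 alternatives (filled where called). *Cdh1* at −1.07 to −0.82 and *Cdh19* at 0.68 to 0.96 stay on their side of 0 and are filled throughout, while the circles of *Cdh2*, *Cdh3*, *Cdh13*, *Ctnna1* and *Ctnnd1* fall on both sides of 0.

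The make-up of the cadherin transcript pool was compared per unit of length, in TPM, as a description with no test. The 7 cadherins summed to 109, 198, 159 and 151 TPM in cKO nerves and 89.8, 106, 126 and 136 TPM in WT nerves. These overlap through cKO K2 (109 TPM) alone. Without it, the lowest cKO sum, 151 TPM, lay above the highest WT sum, 136 TPM. *Cdh19* was the most abundant in every nerve. It made up 60.5%, 57.7%, 55.5% and 53.8% of the sum in cKO nerves and 38.2%, 37.7%, 38.7% and 43.2% in WT nerves, so that the lowest cKO share lay above the highest WT share. *Cdh1* made up 9.65%, 10%, 11.6% and 13.5% in cKO nerves and 27.5%, 24.5%, 29.4% and 27.5% in WT nerves, again without overlap.

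By mean TPM the order of the 7 cadherins in cKO nerves was *Cdh19* (87.4 ± 20.2), *Cdh11* (20.0), *Cdh6* (18.7 ± 4.16), *Cdh1* (17.3 ± 4.6), *Cdh2* (7.64), *Cdh13* (2.2) and *Cdh3* (0.968). In WT nerves it was *Cdh19* (45.4 ± 10.5), *Cdh1* (31.2 ± 6.78), *Cdh11* (15.6), *Cdh6* (11.9 ± 1.68), *Cdh2* (6.73), *Cdh13* (2.31) and *Cdh3* (1.14) (TPM, SD, n = 4 each). *Cdh1* held the second place in WT nerves, where its lowest value, 24.7 TPM, lay above every value of *Cdh11* and *Cdh6*. In cKO nerves the ranges of *Cdh11*, *Cdh6* and *Cdh1* overlapped and their order is within the spread between nerves. The place of *Cdh6* also rests on the gene model: its TPM was computed on a length of 2632 bases, against 8167 for the longest transcript in GENCODE vM21.

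**Figure D3:**
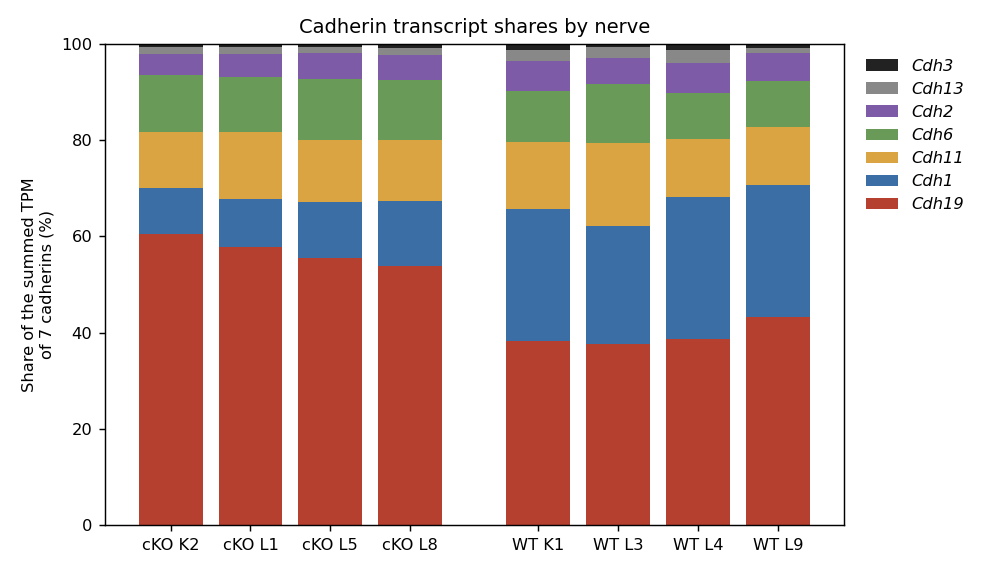
Each bar is a sciatic nerve, the 4 *Nae1* cKO nerves on the left and the 4 WT nerves on the right, and the coloured segments are the shares of each gene in the summed TPM of the 7 cadherins, in percent. The *Cdh19* segment covers 53.8% to 60.5% in cKO nerves and 37.7% to 43.2% in WT nerves, and the *Cdh1* segment 9.65% to 13.5% in cKO nerves and 24.5% to 29.4% in WT nerves.

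Ratios within a nerve do not depend on how libraries are scaled to each other. They are made of the same TPM values. The separation of *Cdh19* over *Cdh1* follows from the levels above and is no further support. The log2 TPM ratio of *Cdh19* over *Cdh1* was 2.65, 2.53, 2.26 and 2.0 in cKO nerves and 0.47, 0.62, 0.40 and 0.65 in WT nerves. The ratio of E-cadherin over N-cadherin, *Cdh1* over *Cdh2*, was 1.17, 1.03, 1.10 and 1.41 in cKO nerves and 2.14, 2.19, 2.26 and 2.24 in WT nerves, so that E-cadherin transcripts remained the more abundant of the pair in every nerve. The ratio of *Cdh6* over *Cdh19* overlapped between the groups, at −2.34 to −2.10 in cKO nerves and −2.16 to −1.63 in WT nerves. The ratio of the catenins, *Ctnnd1* over *Ctnna1*, overlapped as well, at −1.54 to −1.24 in cKO nerves and −1.56 to −1.07 in WT nerves.

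The spread between nerves of the same genotype was compared between genes. After each group's mean was taken off, log2 CPM of *Cdh6* and *Cdh11* correlated at r = 0.72 over the 8 nerves, and *Cdh1* and *Cdh11* at r = −0.74. Among 113 listed genes of at least 10 CPM, the nearest to *Cdh1* were *Prx*, a structural protein of myelinating Schwann cells (r = 0.92), and *Csf1r*, a macrophage receptor (r = 0.91), and the nearest to *Cdh19* were *Sox2* (r = 0.83) and *Foxd3* (r = 0.82), transcription factors of early Schwann cells and neural crest. *Cdh2* was nearest to *Pmp22* (r = 0.90) and *Fat1* (r = 0.89), *Cdh6* and *Cdh11* each to *Zeb1* (r = 0.78 and 0.72), *Ctnna1* to *Ctnnal1* (r = 0.89) and *Ctnnd1* to *Egr2* (r = 0.92). The nearest genes were picked as the highest of 113 correlations over 8 nerves, so a high r can come from that choice alone. These values describe 8 libraries that share their preparation and carry no p, and *Cdh3* and *Cdh13* were too low to be placed.

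Counts of calls in all lists, above and below, stand against 14.1% of all genes called higher and 12.3% lower, and no list was tested as a set. Of the other classical and solitary cadherins, 6 of 16 were measured well enough to test, and *Cdh20* was called higher. *Cdh20*, a type II cadherin, was at 12, 14.6, 14.1 and 13.6 CPM in cKO nerves and 6.21, 10.4, 8.54 and 7.23 CPM in WT nerves. The groups did not overlap, with a log2 fold change of 0.75 (SE 0.16, adjusted p = 0.00402 by edgeR), and the call was lost without WT K1 and L4 (adjusted p = 0.0513) and by limma on TPM. *Cdh5*, the cadherin of endothelium, had a log2 fold change of −0.10 (adjusted p = 0.736). *Cdh15*, the cadherin of muscle, had at most 2 counts in cKO nerves and 6 in WT nerves and was not tested. Desmosomal cadherins were at or near 0: *Dsg1a*, *Dsg2*, *Dsg3* and *Dsc1* had no counts in any nerve, and *Dsc2* had 5 to 17 counts in cKO nerves and 0 to 3 in WT nerves.

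Among the other catenins and plaque proteins of the junction, 14 of 15 were tested, with 1 called higher and 5 lower and a median log2 fold change of −0.25. *Ctnna3*, an alpha-catenin best known from heart and testis, was at 138, 111, 116 and 109 CPM in cKO nerves and 292, 236, 261 and 295 CPM in WT nerves. Its groups were far apart, with a log2 fold change of −1.20 (SE 0.10, adjusted p = 5e-06 by edgeR). *Ctnnal1*, an alpha-catenin-like protein, *Arvcf*, a relative of delta-catenin, *Plekha7*, which binds delta-catenin at the junction, and *Ctnnbip1*, an inhibitor of beta-catenin, were called lower at −0.65 to −0.76, and *Vcl*, the actin linker vinculin, higher at 0.65. *Ctnnal1*, *Arvcf*, *Plekha7* and *Ctnnbip1* lost their calls by limma on TPM. *Ctnnb1* had a log2 fold change of 0.09 (adjusted p = 0.369) and *Jup*, its close relative plakoglobin, −0.015 (adjusted p = 0.951). The log2 TPM ratio of *Ctnnb1* over *Ctnna1* was 1.57, 1.57, 1.56 and 1.57 in cKO nerves and 1.33, 1.42, 1.36 and 1.22 in WT nerves.

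Of the large cadherins with FAT, dachsous, flamingo or calsyntenin structure, 11 of 12 were tested. Of these, 4 were called lower, against 12.3% of all genes, and none higher, against 14.1%, with a median of −0.24. *Fat1*, a giant protocadherin, was at 693 ± 48 CPM in cKO nerves and 1000 ± 75.5 CPM in WT nerves (SD, n = 4 each), and *Celsr1*, a planar polarity cadherin, was lower by a log2 fold change of −1.28 (adjusted p = 0.00036 by edgeR). *Celsr2* and *Clstn1* were lower at −0.67 and −0.66, and *Clstn1* lost its call without WT K1 and L4 (adjusted p = 0.0522). *Fat1*, *Celsr2* and *Clstn1* lost theirs by limma on TPM. Without WT L9, 7 of this list were called lower.

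The nonclustered protocadherins split by gene. Of 12, 10 were tested, with 3 called higher and 1 lower and a median of 0.12. *Pcdh20* was at 34.1, 27.8, 20.7 and 23.2 CPM in cKO nerves and 3.21, 1.81, 3.08 and 0.397 CPM in WT nerves, a log2 fold change of 3.62 (SE 0.41, adjusted p = 0.000241 by edgeR). *Pcdh9* was at 117, 119, 128 and 118 CPM in cKO nerves and 285, 242, 277 and 338 CPM in WT nerves, a log2 fold change of −1.24 (SE 0.097, adjusted p = 2.93e-06). Both held in every alternative that could fit them. *Pcdh11x* was higher at 0.63 (adjusted p = 0.000757, lost by limma on TPM), and *Pcdh10* at 0.48 was called in 11 of 20 alternatives.

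*Cdh1* is a textbook target of transcriptional repressors of the ZEB, SNAIL and TWIST families. The list of 8 repressors of its transcription holds genes of these families and also *Tcf3* and *Klf8*. Of the 8, 7 were tested, with 1 called higher, none lower and a median of 0.41. *Zeb1* was at 267, 236, 226 and 246 CPM in cKO nerves and 100, 124, 105 and 111 CPM in WT nerves. Every cKO nerve was above every WT nerve, with a log2 fold change of 1.15 (SE 0.086, adjusted p = 1.99e-06 by edgeR), and the call held in all 20 alternatives. *Zeb2*, which is required for Schwann cells to myelinate, was at 1090 ± 116 CPM in cKO nerves and 1190 ± 126 CPM in WT nerves (SD, n = 4 each), with a log2 fold change of −0.13 (adjusted p = 0.39). *Snai2* was at 0.46 (adjusted p = 0.125), and *Snai1* had too few counts to test. The part of these repressors in the *Cdh1* result was not tested.

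Among 10 genes of cadherin shedding and turnover, all tested, 1 was called higher and 2 lower, with a median of 0.01. *Adam10*, the protease that sheds E- and N-cadherin, was at 546 ± 14.4 CPM in cKO nerves and 847 ± 109 CPM in WT nerves (SD, n = 4 each), a log2 fold change of −0.63 (SE 0.095, adjusted p = 0.000376 by edgeR). *Mmp14*, a membrane-bound metalloprotease, was higher at 0.63 (adjusted p = 0.00018). *Cbll1*, the ubiquitin ligase Hakai that binds E-cadherin, was called lower at −0.52 with an adjusted p of 0.0441, and that call held in 9 of 20 alternatives. *Adam10* lost its call by limma on TPM.

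**Figure D4:**
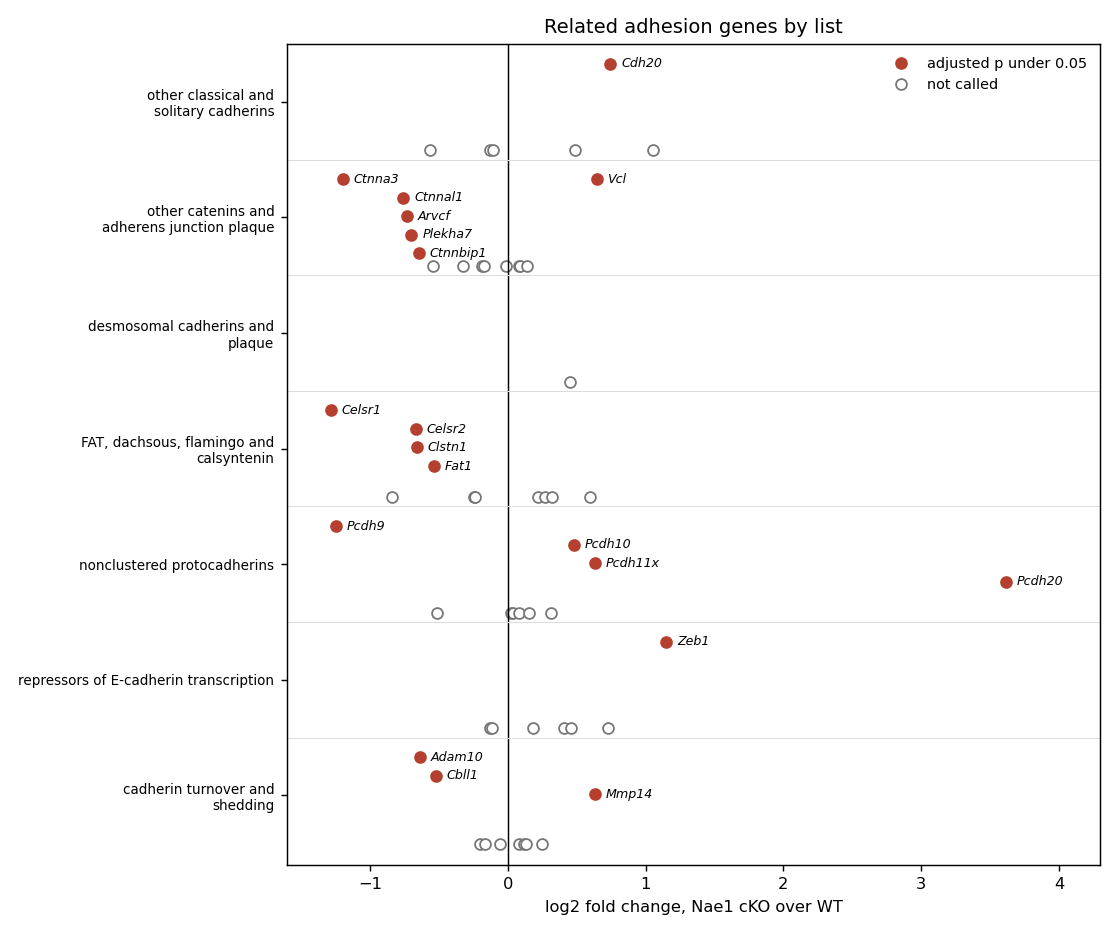
The x axis is the log2 fold change of *Nae1* cKO over WT for tested genes of the 7 related lists, with filled circles named for genes at an adjusted p under 0.05 and open circles, at the foot of each list, for genes that did not pass. *Pcdh20* at 3.62 lies far to the right, *Zeb1* lies at 1.15, and *Ctnna3*, *Celsr1* and *Pcdh9* lie between −1.28 and −1.20.

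Markers of cells outside the Schwann cell lineage also differed. Macrophage markers summed to 385 to 468 CPM in cKO nerves and 217 to 236 CPM in WT nerves, with 8 of 10 called higher and none lower, among them *Csf1r*. Perineurial markers summed to 366 to 464 CPM in cKO nerves and 432 to 543 CPM in WT nerves. Of the 6 tested, 1 was called higher, *Moxd1* at a log2 fold change of 2.30. The 2 called lower were *Tjp1* at −0.43 and *Itgb4* at −0.60, and both lost their calls by limma on TPM. The median over the 6 was 0.47, so the sum does not stand for most of these genes. Neuronal markers summed to 21.6 to 27.8 CPM in cKO nerves and 16.5 to 23.5 CPM in WT nerves. Of the 5 tested, 2 were called higher, *Tubb3* and *Snap25*, the latter in 17 of 19 alternatives. The neurofilament genes *Nefl*, *Nefm* and *Nefh* had log2 fold changes of −1.04, −0.56 and −0.26 and were not called. The median over the neuronal genes tested was −0.26. The part of all these markers in the results for the 9 genes was not tested.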

How the data were processed

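Sciatic nerves of 4 *Nae1* cKO and 4 WT mice at 7 days were sequenced by the authors from total RNA after removal of ribosomal and globin RNA. A gene table made by RSEM was deposited by the authors per nerve. It holds the expected count, an estimated count that the authors left unscaled. It also holds TPM, which the authors scaled to a fixed sum in every nerve, and FPKM, which the authors scaled to depth and to transcript length. Tools named in the submitters' processing notes are FastQC (0.11.5), STAR and RSEM, with GRCm38 as the build. TopHat and Cuffdiff, named in the paper's methods, work from reads and alignments and were not run. The strand setting and the annotation used in counting were looked for and were not given in the sources used here.

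Expected counts were rounded, kept by filterByExpr (17090 of 53090 genes), scaled by TMM and compared with edgeR 4.0.16 (quasi-likelihood, robust, R 4.3.3) over all 8 nerves without covariates, with Benjamini-Hochberg adjustment over all genes tested and a threshold of 0.05. The common biological coefficient of variation was 0.158. Errors are SD over nerves unless named SE. Levels were compared between genes in TPM only. Replicates are separate samples in the labels. Alternatives were DESeq2 1.42.0, limma 3.58.1 (voom, log2(TPM + 1), log2(TPM + 0.1), log2(FPKM + 1)), DESeq2 size factors, library totals, 2 filters on low counts, the letter of the sample name as a term or limit, each nerve left out, and WT K1 and L4 left out. Coding stretches and positions came from GENCODE vM21, with Biopython.

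The members and gene lists were chosen with earlier results of these data known. Genes named were the 9 members, *Nae1*, the leading genes of each list (at most 4 past the threshold, by adjusted p), and the 2 nearest listed genes of each member (1 for some). *Vcl*, *Ctnnbip1* and genes named as not called were chosen after their values were seen, and some genes that the rule gives are not reported here.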

Additional observations from a re-analysis of the deposited data

Results flagged for a closer look

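*Cdh11* in WT L3 was at 147 CPM, while the other 3 WT nerves were at 106 to 110 CPM. Its gap to the nearest of these, divided by the range of the group, was 0.902, above Dixon's limit of 0.829 for 4 samples. It was the only such value among 20 groups tested (the 9 genes and *Nae1* in each genotype), and chance gives about 5% of groups. *Cdh11* in cKO nerves was at 129 to 147 CPM, so WT L3 alone makes the genotypes overlap.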

How the results depend on the processing

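*Cdh1* and *Cdh19* kept their direction and their call in all 20 alternatives. The all-gene count of called genes was 4510, and it was 1721 by limma on log2(TPM + 1), 1660 on log2(TPM + 0.1) and 2402 without WT K1 and L4. With log2(TPM + 1) and with log2(TPM + 0.1), 1 member was called higher in place of 2, since *Cdh6* did not pass. For *Cdh6*, cKO K2 was the highest cKO nerve in CPM (65.8) but the lowest in TPM (12.9). How far this nerve accounts for calls lost on TPM was not tested. Leaving out each nerve in turn gave 1 to 2 members called lower, with *Cdh3* the added call without WT L3. Scaling by library totals moved the median log2 fold change of all genes to 0.16 and TPM or FPKM moved it to 0.10 to 0.13, and 75.5% of calls were then higher with library totals, 75.4% and 75.0% with TPM and 76.4% with FPKM, against 53.5% with TMM. Members with estimates near 0 changed sign: with library totals *Ctnna1* 0.132 and *Ctnnd1* 0.093, with log2(TPM + 1) *Cdh13* −0.025, *Ctnna1* 0.099 and *Ctnnd1* 0.055, with log2(TPM + 0.1) *Cdh13* −0.022, *Ctnna1* 0.1 and *Ctnnd1* 0.057, with log2(FPKM + 1) *Cdh13* −0.01, *Ctnna1* 0.128 and *Ctnnd1* 0.084, and without WT K1 and L4 *Cdh3* 0.047 and *Ctnnd1* 0.024. With each nerve left out, *Cdh2* lay between −0.041 and 0.07, *Cdh13* between −0.069 and 0.3, *Ctnna1* between −0.051 and 0.004, and *Ctnnd1* between −0.12 and 0.006. None of these passed the test, and the cause was not tested. No paired analysis was possible because the nerves of the 2 genotypes share no replicate name. Depth limits *Cdh3* and *Cdh13* most, at 56 to 144 counts a nerve.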
